A study of Mus musculus with 24 samples.

Results

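The genes described here are 10 that mark blood vessels or act on them: the angiopoietins Angpt1 and Angpt2, the receptors Tie1, Kdr, Flt1, Robo4 and Aplnr, the junction proteins Pecam1 and Cdh5, and thrombomodulin, Thbd. They were chosen by name and not by a measured difference, and all 10 are among the 750 genes that hold values. Their levels come from 24 NanoString samples, in which coloured barcodes bound to each RNA are counted without amplification. The samples are mouse mammary tumour-derived transplants (mTDT), mammary tumours re-grown as transplants, in BALB/c hosts, an inbred mouse strain. Every sample is a tumour of this kind, with no normal mammary gland and no treated animals among those analysed here, and the labels name no genotype, drug, time or age.

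The labels give each sample an immune infiltrate class, with 13 inflamed, 4 excluded and 7 desert tumours and no account of how tumours were sorted into classes. The sample codes open with 1 of 6 letters (A, C, F, G, H, L) that the labels tie to tumour origin, and carry either 0 (5 samples) or F2 (19 samples), whose meaning the labels leave unstated. Libraries under one code number could stem from a single tumour, in which case the p-values describe the spread of these libraries and no more. Each sample is a piece of bulk tissue, so fewer cells of a type and less RNA per cell cannot be told apart.

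Endothelial cells line blood vessels and are held together by Cdh5 (VE-cadherin) and Pecam1 (CD31). Angpt1, made mainly by pericytes and other mesenchymal cells, activates the endothelial receptor Tek and keeps vessels quiescent, while Angpt2, released by activated endothelium, can oppose it; Tie1 is the partner of Tek. Vessel growth in tumours is driven largely by VEGF-A through Kdr (VEGFR2), with Flt1 (VEGFR1) acting in part as a decoy.

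Depth set which samples could be read. Total barcode counts per library ran between 5262 and 1110314. The 16 libraries with at least 100000 counts (8 inflamed, 3 excluded and 5 desert) are called deep and carry the results, and in the 8 shallow ones between 0 and 6 of the 10 genes exceeded the library's detection limit. In the deep libraries Angpt2, Pecam1, Kdr, Cdh5, Tie1, Flt1 and Robo4 exceeded the limit in 16 of 16 and Angpt1, Thbd and Aplnr in 14 of 16, so the tumours held readable endothelial RNA throughout. Of the 12 endothelial marker genes listed for these samples, 6 were measured (Pecam1, Cdh5, Kdr, Tie1, Flt1 and Robo4) and all 6 were detected, whereas none of the 4 lymphatic markers was measured. Among the deep libraries, inflamed replicates 3 and 4 share a code number of origin A and excluded replicates 2 and 3 share one of origin C. The counts of these pairs differed by 2.23 and 8.59 times the sampling noise (chi-square per degree of freedom over genes). The other deep pairs of one letter and class that were compared differed by 46.1 or more. Libraries of one code number were not always this close. Desert replicate 6, which is deep, shares its code number with desert replicates 3 and 4, which are shallow. It differed from them by 69.2 and 66.6 times the sampling noise. All levels below are log2 values of a scaled barcode count, and because each probe binds with its own efficiency, no gene's level is set against another's.

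Reference promoter sequences from RefSeq (GRCm38.p6) were at hand for 4 of the 10 genes, Flt1, Kdr, Robo4 and Tie1, and all 4 are shown. Of the 6 pairs among these receptors, 5 passed the correlation test described further on, all but Flt1 with Robo4. After centring each library on its median, Kdr with Robo4 still passed and the other 4 did not (adjusted permutation p between 0.122 and 0.179). Each runs 5′ to 3′ on the gene's strand, 250 bases before to 50 bases after a transcript start. Capitals mark AGGAAG, a core bound by ETS transcription factors, in either orientation (CTTCCT on the printed strand), and TATAAA, the TATA box, also searched on both strands; the letters of the motifs do not overlap. Their positions on the assembly are chr5:147725962-147726261 on the minus strand for Flt1, chr5:75978406-75978705 on the minus strand for Kdr, chr9:37401722-37402021 on the plus strand for Robo4 and chr4:118489800-118490099 on the minus strand for Tie1.
Flt1: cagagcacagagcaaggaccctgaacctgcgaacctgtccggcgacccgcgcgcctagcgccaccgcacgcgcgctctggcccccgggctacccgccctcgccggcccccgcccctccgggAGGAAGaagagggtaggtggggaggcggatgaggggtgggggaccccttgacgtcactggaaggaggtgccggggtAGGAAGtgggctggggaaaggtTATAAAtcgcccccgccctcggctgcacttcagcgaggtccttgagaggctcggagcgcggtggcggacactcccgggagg
Kdr: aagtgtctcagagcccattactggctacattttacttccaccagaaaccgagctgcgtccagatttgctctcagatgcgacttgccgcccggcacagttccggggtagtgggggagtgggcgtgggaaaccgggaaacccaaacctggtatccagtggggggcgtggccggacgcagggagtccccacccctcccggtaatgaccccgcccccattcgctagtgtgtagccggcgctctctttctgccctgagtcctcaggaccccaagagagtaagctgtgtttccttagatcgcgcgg
Robo4: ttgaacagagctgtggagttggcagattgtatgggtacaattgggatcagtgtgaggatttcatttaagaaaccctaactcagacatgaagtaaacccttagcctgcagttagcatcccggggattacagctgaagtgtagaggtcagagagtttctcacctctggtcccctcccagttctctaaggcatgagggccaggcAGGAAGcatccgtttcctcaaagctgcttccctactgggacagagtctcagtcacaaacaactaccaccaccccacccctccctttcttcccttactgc
Tie1: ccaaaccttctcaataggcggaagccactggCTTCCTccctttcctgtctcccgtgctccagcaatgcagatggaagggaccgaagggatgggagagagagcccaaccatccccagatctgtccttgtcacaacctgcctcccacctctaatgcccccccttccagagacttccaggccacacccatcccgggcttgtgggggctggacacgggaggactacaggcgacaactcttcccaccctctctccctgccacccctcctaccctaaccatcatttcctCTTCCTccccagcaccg
AGGAAG stood in 3 of the 4 windows, at 129 and 53 bases before the start in Flt1, 49 bases before it in Robo4, and on the opposite strand of Tie1 219 bases before the start and again 34 bases into the transcript. It occurs in 35.35% of all 32851 promoter windows of this length. TATAAA stood once, 31 bases before the start of Flt1, and occurs in 13.62% of all windows. Neither motif was in the Kdr window. A match describes the letters only.

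The first question was whether vessel genes differed with the infiltrate class. Between inflamed and desert tumours none of the 10 genes passed an adjusted p of 0.05 (limma with Benjamini-Hochberg adjustment over the 750 genes), where 0.267% of all genes did. At an unadjusted p under 0.05 there were 2 of 10, Angpt2 and Thbd, both lower in inflamed tumours, against 4.67% of all genes in that direction. The median difference over the 10 genes was -0.13, against 0.12 over all genes. The lower values in inflamed tumours were those of Angpt1, Angpt2, Thbd and, less, Tie1, while the junction proteins and the VEGF receptors lay close to 0.

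**Figure D1:**
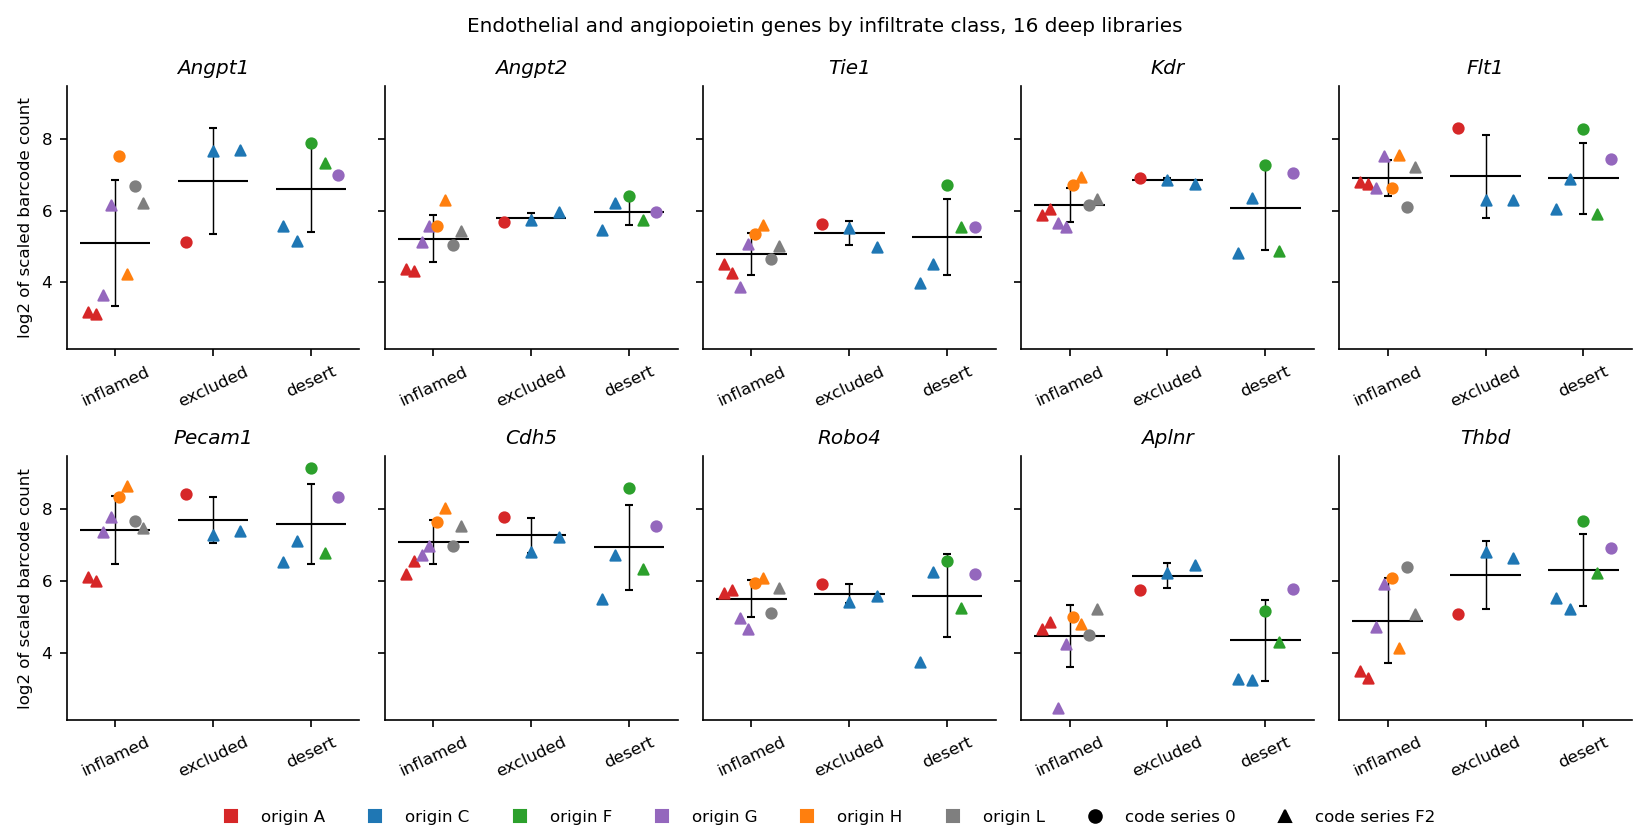
Levels of the 10 genes (log2 of scaled barcode count) in the 16 deep libraries by infiltrate class (inflamed n = 8, excluded n = 3, desert n = 5); each point is a library, coloured by origin letter, with circles for code series 0 and triangles for F2, and bars give the mean ± SD. Inflamed libraries spread widest in Angpt1, between 3.13 and 7.52, and Aplnr in the 3 excluded libraries lies above all 8 inflamed ones.

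Angpt1, the agonist ligand, was at 3.13 in the lowest, 5.19 in the median and 7.52 in the highest of the inflamed libraries, at 5.12, 7.65 and 7.68 in the excluded ones, and at 5.16, 5.56, 7.001, 7.33 and 7.89 in the desert ones. The inflamed group thus held both low and high libraries, overlapping the other classes, and its 4 lowest were all F2 codes, of origins A, G and H. Means were 5.09 ± 1.74 in inflamed (SD, n = 8), 6.82 ± 1.47 in excluded (n = 3) and 6.59 ± 1.17 in desert tumours (n = 5). The inflamed minus desert difference was -1.49 ± 0.80 (SE; limma adjusted p = 0.539) and did not exceed the spread. It was -0.85 without inflamed replicates 3 and 4, in which Angpt1 was below the detection limit.

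Angpt2, the context-dependent ligand stored in endothelial cells, lay in a narrower band, with 4.33, 5.27 and 6.29 as the lowest, median and highest inflamed values, 5.69, 5.75 and 5.95 in the excluded libraries and 5.47, 5.74, 5.97, 6.20 and 6.39 in the desert ones. The highest inflamed library, replicate 8, stood above all but 1 desert library, so the groups overlapped. The difference, inflamed minus desert, was -0.74 ± 0.34 (SE; limma p = 0.0434, adjusted p = 0.441), and without inflamed replicates 3 and 4 it was -0.45 ± 0.28 (adjusted p = 0.497).

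Because both ligands bind Tek, Angpt2 was also taken relative to Angpt1 within each library, a difference that no scaling factor can change. It was -1.95, 0.30 and 2.07 in the lowest, median and highest inflamed library, -1.90, -1.73 and 0.57 in the excluded libraries, and -1.60, -1.49, -1.03, -0.09 and 1.04 in the desert ones. The 2 probes set where 0 lies, so only differences between libraries can be read. Angpt1 was below the limit in inflamed replicates 3 and 4, whose 1.19 and 1.20 are bounds that enter the median, the means and the tests as measured. The largest value, 2.07, belonged to inflamed replicate 8 (H, F2) and the smallest, -1.95, to inflamed replicate 1, which carries the same letter in the 0 series. Inflamed exceeded desert tumours by 0.75 (2-sided exact permutation p = 0.366) and excluded ones by 1.14 (p = 0.248), and excluded minus desert was -0.39 (p = 0.625). After adjustment over the 3 pairs of classes the p-values were 0.549, 0.549 and 0.625. Without those 2 libraries the inflamed differences were 0.40 against desert and 0.78 against excluded tumours (exact permutation, adjusted p = 0.660). The smallest p that 3 excluded against 5 desert libraries allow is 0.0179.

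Thbd, the endothelial thrombin receptor that turns clotting towards anticoagulation and that macrophages also express, had its lowest, median and highest inflamed values at 3.30, 4.90 and 6.40. It stood at 5.09, 6.63 and 6.80 in the excluded and at 5.22, 5.53, 6.22, 6.92 and 7.68 in the desert libraries. Of the 8 inflamed libraries, 5 lay below the lowest desert value and 3 lay among the desert values. The inflamed minus desert difference was -1.42 ± 0.59 (SE; limma p = 0.0282, adjusted p = 0.426). Without inflamed replicates 3 and 4 it was -0.92 ± 0.53 (adjusted p = 0.483). Thbd was below the detection limit in both of these libraries.

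Of the receptors, Tie1 had 3.86, 4.84 and 5.599 as the lowest, median and highest inflamed values, 4.99, 5.51 and 5.63 in excluded and 3.98, 4.501, 5.53, 5.55 and 6.71 in desert libraries. The inflamed values lay within the desert range except replicate 10, just below it, and the difference from desert was -0.46 ± 0.43 (SE; limma adjusted p = 0.699). Kdr averaged 6.15 ± 0.48 in inflamed, 6.84 ± 0.08 in excluded and 6.08 ± 1.16 in desert tumours (SD). Its desert libraries fell into a low pair, replicates 5 and 7 at 4.83 and 4.88, and a higher trio at 6.36, 7.04 and 7.27. Flt1 averaged 6.90 ± 0.50 in inflamed, 6.96 ± 1.16 in excluded and 6.90 ± 0.99 in desert tumours. Its inflamed minus desert difference of 0.00 had an SE of 0.45. Robo4, a receptor that steadies the endothelial barrier, averaged 5.50 ± 0.52 in inflamed, 5.64 ± 0.26 in excluded and 5.59 ± 1.15 in desert tumours, with 1 desert library, replicate 5, at 3.73 below all others.

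Pecam1 had 5.996, 7.57 and 8.64 as the lowest, median and highest inflamed values, 7.28, 7.40 and 8.43 in excluded and 6.54, 6.77, 7.12, 8.34 and 9.13 in desert libraries. Cdh5 had 6.20, 6.97 and 8.04 as the lowest, median and highest inflamed values, 6.80, 7.23 and 7.77 in excluded and 5.51, 6.32, 6.72, 7.53 and 8.60 in desert libraries. All inflamed values of Cdh5, and those of Pecam1 except in replicates 3 and 4, lay within the desert range. The inflamed minus desert differences were -0.16 ± 0.53 for Pecam1 and 0.14 ± 0.46 for Cdh5 (SE; limma adjusted p = 0.948 for both). The summed level of the 6 endothelial markers was 8.59, 9.18 and 10.09 (log2; lowest, median and highest) in inflamed, 9.10, 9.19 and 10.11 in excluded and 8.03, 9.08 and 10.65 as lowest, median and highest in desert tumours.

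Aplnr, the apelin receptor of sprouting and venous endothelium, was the gene that set the excluded tumours apart from inflamed ones in its range. It was at 2.47, 4.74 and 5.22 in the lowest, median and highest inflamed library, at 5.76, 6.24 and 6.44 in the excluded libraries and at 3.24, 3.26, 4.30, 5.17 and 5.77 in the desert ones. The inflamed and excluded ranges did not overlap, while 1 desert library, replicate 2, reached the lowest excluded value. Inflamed minus excluded was -1.68 ± 0.59 (SE; limma p = 0.0118, adjusted p = 0.526) and excluded minus desert was 1.80 ± 0.64 (p = 0.0122, adjusted p = 0.540). Neither passed the threshold. Aplnr was below the limit in inflamed replicate 10 and desert replicate 7.

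Inflamed and excluded tumours differed in no gene at an adjusted p of 0.05, member or not (0% of genes; limma). At an unadjusted p under 0.05 stood 1 of the 10, Aplnr, and 64 of the 750 genes (8.53%). Aplnr was also the 1 of 10 whose groups did not overlap, lower in inflamed, against 2.27% of all genes in that direction. All 10 differences were negative, against 8 after quantile normalisation and 7 after median centring. Endothelial scaling centres each library on the mean of Pecam1, Cdh5, Tie1 and Kdr and so forces these 4 to balance around 0. Of the other 6, Angpt1, Angpt2, Aplnr and Thbd were negative and Flt1 and Robo4 positive under all of these scalings. The median over the 10, which are not independent, was -0.58, against 0.00 over all genes and -0.15 over the 568 genes above the limit, of which 346 were negative. The largest were those of Angpt1 (-1.72), Aplnr (-1.68) and Thbd (-1.28), and the smallest that of Flt1 (-0.06). With letter as a fixed block, which draws on A directly and on C and G through the desert libraries, they were -2.88 for Angpt1 (adjusted p = 0.0783), -2.69 for Aplnr (adjusted p = 0.0663), -2.16 for Thbd (adjusted p = 0.0764) and -1.96 for Pecam1 (adjusted p = 0.0702). In that fit 62 of the 750 genes were called, 46 of them lower, and 0 of the 10. In A the excluded library is also the one of series 0, so class and series cannot be told apart there, nor in G, where the desert library is of series 0 and the inflamed ones of F2. Excluded and desert tumours likewise differed in no gene (0%; limma), with 1 of the 10, Aplnr, at an unadjusted p under 0.05 and 46 of 750 genes (6.13%). The median over the 10 was 0.12, against 0.13 over all genes. Of the 3 deep excluded libraries, 2 share a code number.

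Origin was examined next, since class and letter are linked: among deep libraries both of F are desert and both of H and both of L are inflamed. The moderated F test of limma over the 6 letters called none of the 10 genes, where 0.4% of all genes were called, and 1 of 10, Thbd (p = 0.0485, adjusted p = 0.266), had an unadjusted p under 0.05, where 18.4% of all genes did. Letter means of Angpt1 spanned 3.802 log2 units, with the highest at 7.61 in F and the lowest at 3.81 in A. Those of Thbd spanned 2.98, again with F highest at 6.95 and A lowest at 3.96. The other 8 spanned between 0.74 (Kdr) and 1.64 (Pecam1).

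**Figure D2:**
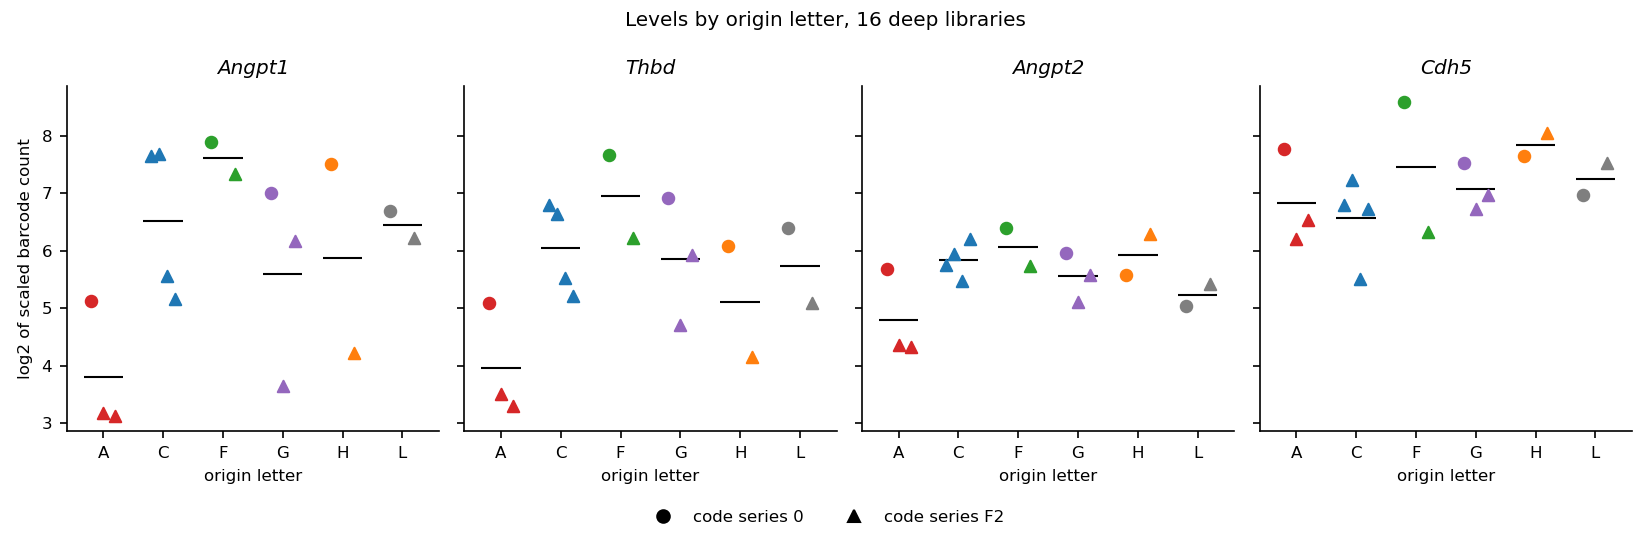
Levels of Angpt1, Thbd, Angpt2 and Cdh5 (log2 of scaled barcode count) by origin letter in the 16 deep libraries, with circles for code series 0, triangles for F2 and lines at the letter means. In A the 2 triangles of Angpt1, at 3.17 and 3.13, and of Thbd, at 3.50 and 3.30, share a code number and lie below every other library, while the circle of A lies at 5.12 and 5.09.

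Set against the mean of the other letters, origin A had 2 of the 10 genes called lower and none higher, Angpt1 and Thbd, against 13.7% of all genes called lower, 8.67% called higher and 22.4% called in either direction. Over all genes 65 were called higher and 103 lower, a split that was 81 to 64 after median centring and 25 to 6 with endothelial scaling. The median over the 10 was -0.40, against -0.22 over all genes and -0.45 over the genes above the limit. Angpt1 was at 3.13, 3.17 and 5.12 in the 3 libraries of A, and at 3.64, 6.69 and 7.89 in the lowest, median and highest of the other 13. The fitted difference was -2.60 ± 0.81 (SE; limma adjusted p = 0.0374). Thbd was at 3.30, 3.50 and 5.09 in A and at 4.15, 6.08 and 7.68 in the lowest, median and highest of the others, with a difference of -1.98 ± 0.60 (adjusted p = 0.0340). For both genes the 2 lowest libraries of A lay below all others and the third lay among them. Those 2 are the inflamed pair under one code number, and both genes were below the detection limit there. Averaged to 1 sample, the pair left Angpt1 at -2.19 (adjusted p = 0.271) and Thbd at -1.65 (adjusted p = 0.274). Without the pair the differences were -1.29 (adjusted p = 0.834) and -0.85 (adjusted p = 0.840). Leaving out either library of the pair also ended both calls, with adjusted p between 0.211 and 0.223, as did centring on the library median (adjusted p = 0.0565 and 0.0564) or leaving out inflamed replicate 1, desert replicate 1 or inflamed replicate 2 (adjusted p between 0.0522 and 0.057).

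Angpt2 lay at 4.33, 4.36 and 5.69 in A and at 5.03, 5.74 and 6.39 in the lowest, median and highest of the other libraries. Its difference of -0.93 ± 0.37 missed the threshold (SE; limma adjusted p = 0.0868). It passed without excluded replicate 1, the 0-series library of A (-1.38, adjusted p = 0.00675) and was -0.035 without the inflamed pair. Pecam1, at -0.94 (adjusted p = 0.241), also passed without excluded replicate 1 (-1.73, adjusted p = 0.0141) and was positive, at 0.65, without the inflamed pair. In the fit without excluded replicate 1, 298 of the 750 genes were called, 201 of them lower, and 4 of the 10. With all deep libraries Flt1, Robo4 and Aplnr were at 0.39, 0.20 and 0.41 and Kdr at -0.01. Markers of other cell types were read beside these values, without a test. The summed macrophage and monocyte markers (7 of 7 measured, all detected) were 8.81, 8.91 and 10.40 in A and between 10.10 and 12.78 in the others. Ptprc, the pan-leukocyte marker CD45, was 5.51, 5.70 and 7.72 in A and between 6.69 and 9.45 elsewhere. Epithelial markers (2 of 6 measured, neither above the limit in at least 8 deep libraries) summed to 10.27, 10.40 and 10.97 in A and to between 1.27 and 4.502 elsewhere, with no overlap. The lowest sum, 1.27 in desert replicate 1, lay below that library's limit of 2.03. The pericyte and smooth muscle list, of which Pdgfrb and Angpt1 were 2 of 7 measured, summed to 7.45, 7.63 and 7.82 in A and to between 6.503 and 8.87 elsewhere, a range that encloses A. This sum holds Angpt1 itself, so it is no separate marker to set beside the Angpt1 difference. For macrophages and Ptprc the third library of A, excluded replicate 1, lay among the others. The part of these cell types in the Angpt1 and Thbd differences was not tested.

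Origin C, set against the other letters, had none of the 10 genes called in either direction (0.133% of all genes; limma), and none at an unadjusted p under 0.05, where 37 of 750 genes stood (4.93%). The differences ran between -0.73 for Cdh5 and 0.64 for Angpt1. Within C the classes differed in Angpt1, at 7.65 and 7.68 in the 2 excluded libraries and at 5.56 and 5.16 in the 2 desert ones. Aplnr showed the same order, at 6.24 and 6.44 in the excluded and at 3.26 and 3.24 in the desert libraries of C. The excluded libraries share a code number, and C is the sole letter with deep libraries of both classes. With letter as a fixed block, excluded minus desert was 1.69 ± 0.88 for Angpt1 (SE; limma adjusted p = 0.348) and 1.96 ± 0.76 for Aplnr (adjusted p = 0.260). This fit draws on C directly and on A and G through the inflamed libraries, so it does not give the difference within C alone.

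The comparison of the code series gave differences of one sign. All 10, series 0 minus F2, were positive, while after median centring or quantile normalisation 9 were positive. With endothelial scaling, which again makes its 4 genes balance around 0, 3 were positive (Angpt1, Pecam1 and Thbd). The median over the 10 was 0.79, against 0.05 over all genes and 0.25 over the 568 genes that exceeded the detection limit, of which 377 were positive. None of the 10 was called higher at an adjusted p of 0.05, where 0.667% of all genes were (4.13% in either direction, 5 higher and 26 lower, or 0 higher and 169 lower with endothelial scaling; limma). At an unadjusted p under 0.05, 5 of 10 were higher (Cdh5, Kdr, Pecam1, Thbd and Tie1), against 6.67% of all genes. Series and depth cannot be told apart: the 5 libraries of series 0 held between 982205 and 1110314 counts and the 11 deep F2 libraries between 107677 and 976271. The summed endothelial markers were between 9.05 and 10.65 in series 0 and between 8.03 and 10.09 in F2.

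Pecam1 was at 7.68, 8.33, 8.34, 8.43 and 9.13 in series 0 and at 5.996, 7.28 and 8.64 in the lowest, median and highest F2 library. Every series 0 library exceeded the F2 median and 1 exceeded all F2 libraries. The difference was 1.25 ± 0.39 (SE; limma p = 0.00463, adjusted p = 0.0755). It passed the threshold with all 24 libraries (1.71, adjusted p = 0.0432), with letter as a random block (1.20, adjusted p = 0.0377) and without inflamed replicate 8 (1.40, adjusted p = 0.0386). With letter as a fixed block it did not (1.14, adjusted p = 0.0776). The 8 shallow libraries among the 24 are all F2, and Pecam1 exceeded the detection limit in 3 of them. Thbd was at 5.09, 6.08, 6.40, 6.92 and 7.68 in series 0 and at 3.30, 5.22 and 6.80 in the lowest, median and highest F2 library. Its difference of 1.24 ± 0.57 (SE; limma adjusted p = 0.251) was 1.60 ± 0.35 with letter as a fixed block (adjusted p = 0.00896) and 1.44 with letter as a random block, where it did not pass (adjusted p = 0.0600). The F2 libraries of A, where Thbd was below the detection limit, entered these fits as measured. Cdh5 (0.92 ± 0.37), Kdr (0.81 ± 0.37) and Tie1 (0.78 ± 0.37) had adjusted p-values between 0.199 and 0.277.

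**Figure D3:**
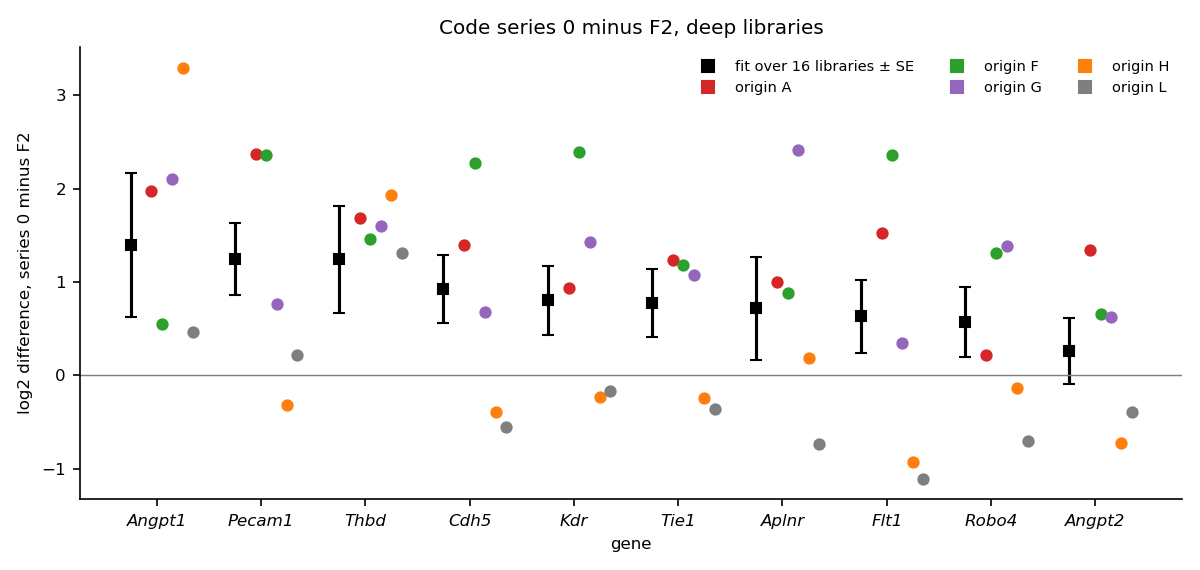
Difference in log2 level, series 0 minus F2, for each gene. Black squares give the fit over 16 deep libraries ± SE and coloured points the difference within each of the 5 letters that hold both series. The squares run between 0.26 (Angpt2, negative after median centring) and 1.40 (Angpt1), and the points of Thbd, between 1.31 and 1.93, stay closest together. The A points of Thbd and Angpt1 are bounds, as both genes were below the detection limit in the F2 libraries of A.

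Within the 5 letters that hold both series (A, F, G, H and L), Thbd was higher in the 0 code of every letter, by 1.69, 1.46, 1.60, 1.93 and 1.31. In A the 0 code is excluded and in G it is desert, while the F2 libraries of both are inflamed, so in these letters series and class cannot be told apart. Angpt1 was also higher in the 0 code of every letter, but unevenly, by 1.97 in A, 0.56 in F, 2.10 in G, 3.30 in H and 0.47 in L. Thbd and Angpt1 were below the detection limit in the F2 libraries of A, so 1.69 and 1.97 are bounds. Pecam1 and Aplnr were higher in 4 of 5 letters. The remaining 6 were higher in A, F and G and lower in H and L. Cdh5, for instance, differed by 1.40, 2.28 and 0.68 in A, F and G and by -0.39 and -0.55 in H and L. With 5 pairs the smallest 2-sided p of an exact sign-flip test is 0.0625, so none could pass. A limma test of whether the series difference varied between letters called no gene (smallest adjusted p 0.0624), with 173 genes at an unadjusted p under 0.05. Of the 10, Cdh5, Flt1, Kdr and Pecam1 were among those 173, with adjusted p between 0.189 and 0.210. For Thbd the adjusted p was 0.981. The spread within a letter and series could be taken only from the F2 libraries of A, which share a code number, and those of G. This test therefore does not decide whether the series difference varied between letters. A test of whether inflamed minus desert differed between the series called no gene either, with 22 at an unadjusted p under 0.05. Flt1 was one of them, at -1.48 in series 0 and 0.80 in F2, a difference of -2.28 ± 0.69 (SE; limma p = 0.00595, adjusted p = 0.937).

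How the genes varied together was read over 14 code units, in which libraries of 1 code number were averaged. Of the 45 pairs of genes, 44 had a positive Pearson r, with a median of 0.55, and 18 passed an adjusted p of 0.05 (permutation test with 100000 resamples, adjusted over the 45). No share for pairs of other genes is given here, so 18 of 45 cannot be set against a background. The resamples shuffled units of both series together. All values of a library share its scaling. After centring on the library median, 6 pairs passed and the median r was 0.43. Within the 9 F2 units 1 pair passed, with a median r of 0.41, and the 5 units of series 0 were too few.

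**Figure D4:**
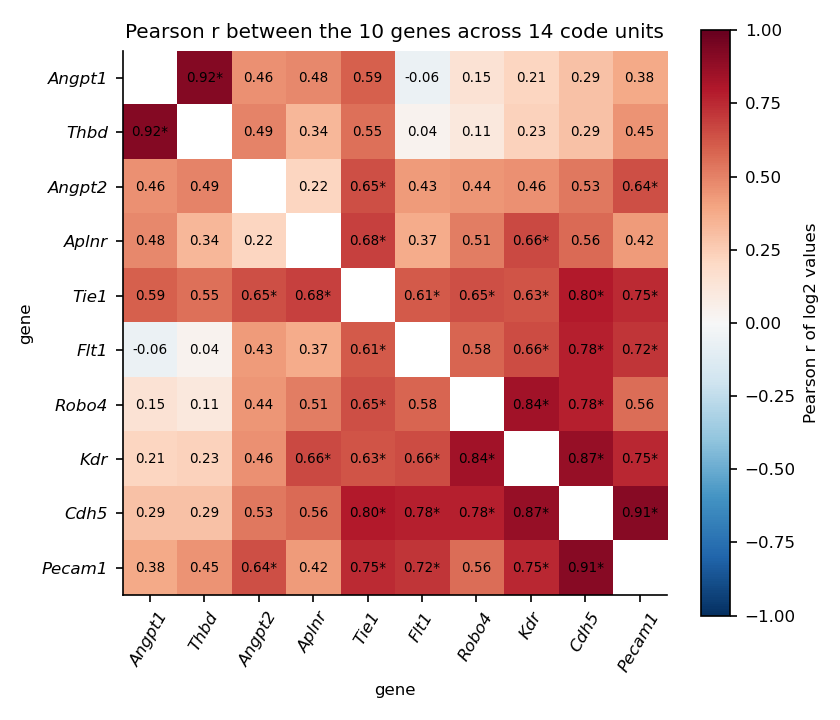
Pearson r between the log2 levels of each pair of the 10 genes across 14 code units of the deep libraries; asterisks mark an adjusted permutation p under 0.05. Angpt1 and Thbd are tied to each other (0.92) but not to Flt1 (-0.06 and 0.04), and every pair among Pecam1, Cdh5, Kdr and Tie1 passes, with r between 0.63 and 0.91. After centring on the library median, Pecam1 with Cdh5 and Cdh5 with Kdr still pass. The other pairs among Pecam1, Cdh5, Kdr and Tie1 then do not (adjusted permutation p between 0.0510 and 0.179).

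Angpt1 and Thbd had the highest correlation of all 45 pairs, with r = 0.92 and Spearman rho = 0.90. The permutation p for r was 1e-05, the smallest that the resamples can give, and the adjusted p was 0.00045. It was 0.89 without the 2 units farthest from the Angpt1 median, 0.93 within F2 and 0.91 after median centring. Pecam1 and Cdh5 followed with r = 0.91 and rho = 0.93 (permutation, adjusted p = 0.000675), 0.92 without the 2 farthest units and 0.84 within F2. Cdh5 was also tied to Kdr (r = 0.87, rho = 0.88, adjusted p = 0.00075) and Kdr to Robo4 (r = 0.84, rho = 0.85, adjusted p = 0.00135), and without the 2 farthest units these were 0.78 and 0.83. None of the 16 pairs of Angpt1 or Thbd with the other 8 genes passed. Their r ran between -0.06 for Angpt1 with Flt1 and 0.59 for Angpt1 with Tie1 (adjusted permutation p = 0.0565), with Thbd at 0.55 with Tie1 and 0.45 with Pecam1 and both genes at 0.29 with Cdh5. Angpt2 passed with Pecam1 (r = 0.64, rho = 0.51) and Tie1 (r = 0.65, rho = 0.71), both with an adjusted permutation p of 0.0353. Its r with Pecam1 was 0.27 without the 2 farthest units and so rests on them. Angpt2 and Angpt1 had r = 0.46 (adjusted p = 0.155), which was -0.10 without the 2 farthest units.

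**Figure D5:**
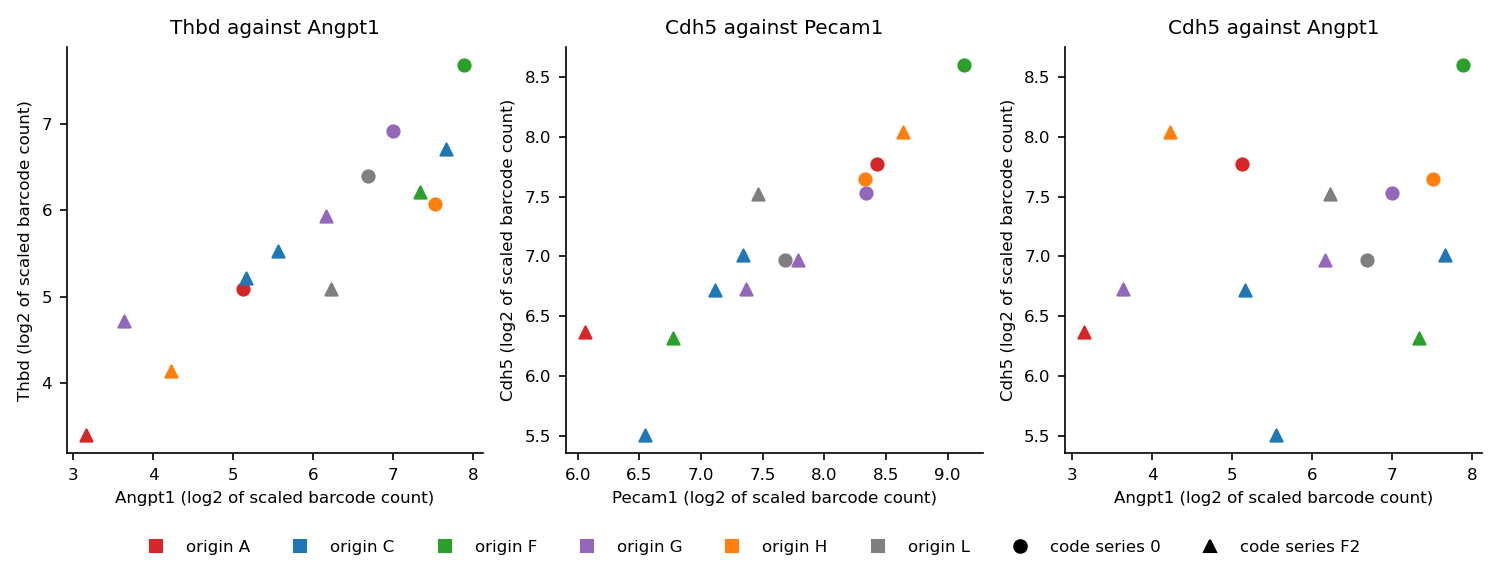
Scatter of log2 levels across 14 code units (deep libraries, coloured by origin letter, circles for series 0, triangles for F2): Thbd against Angpt1 (r = 0.92), Cdh5 against Pecam1 (r = 0.91) and Cdh5 against Angpt1 (r = 0.29). The first 2 panels follow a line, with the A unit of F2 lowest for Angpt1, Thbd and Pecam1, and the third does not.

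Among the 558 other genes that exceeded the limit, the one most like the mean of the 10 (each gene centred) was Clec14a, an endothelial lectin, with r = 0.94 and rho = 0.90 over the 14 units and r = 0.86 over the 9 F2 units. Shc2 (0.79), Hsd11b1 (0.75), Dusp1 (0.75) and Mmrn2 (0.72) followed, with lower r over the F2 units (0.48, 0.61, 0.49 and 0.41 in the same order), and the median r over all 558 was 0.16. Hsd11b1 is a glucocorticoid-activating enzyme, Dusp1 an early-response phosphatase and Mmrn2 an endothelial matrix protein that binds Clec14a. The units share libraries and scaling, so these r are descriptions. Clec14a averaged 5.27 ± 0.68 in series 0 and 4.11 ± 0.48 in F2 (SD), a difference of 1.16 ± 0.33 (SE; limma adjusted p = 0.0504).

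A wider list of 66 vessel genes (VEGF and Notch signals, adhesion molecules and endothelial regulators) had 26 measured, of which 23 exceeded the limit in at least 8 deep libraries. Between inflamed and desert tumours 0 of 26 passed (limma; 2 at an unadjusted p under 0.05, both higher, where 6% of all genes were). The 5 with the smallest p were Cxcl12, a chemokine for Cxcr4-bearing cells (2.03 ± 0.66, SE, adjusted p = 0.315), Edn1, endothelin-1 (1.55 ± 0.72, adjusted p = 0.441), the Notch ligand Jag2 (2.00 ± 1.03, adjusted p = 0.529), Notch1 (0.98 ± 0.63, adjusted p = 0.581) and Tymp (0.95 ± 0.61, adjusted p = 0.581), which exceeded the limit in 1 deep library. Cxcl12 averaged 8.69 ± 1.18 in inflamed, 5.29 ± 1.03 in excluded and 6.67 ± 1.46 in desert tumours (SD), and inflamed minus excluded was 3.41 ± 0.79 (SE; adjusted p = 0.343). Edn1 passed among libraries of at least 200000 counts (2.69, adjusted p = 0.0221). The other class comparisons also called 0 of 26 (limma), with 3 of 26 at an unadjusted p under 0.05 for inflamed against excluded (8.53% of all genes) and 0 of 26 for excluded against desert (6.13%). Over letters 0 of 26 passed, with Notch1, Jag2, Vcam1, Pdgfb and Vegfc at the smallest p (adjusted p between 0.121 and 0.293).

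In origin A against the other letters the same list had 2 genes called higher, Notch1 (2.32 ± 0.46, SE, limma adjusted p = 0.00735) and Jag2 (4.06 ± 0.81, adjusted p = 0.00735). It had 2 called lower, Vcam1, an adhesion molecule for leukocytes (-2.59 ± 0.59, adjusted p = 0.0132), and the lymphangiogenic factor Vegfc (-2.18 ± 0.62, adjusted p = 0.0259). These 4 of 26 stand against 22.4% of all genes called in either direction. Averaging the pair of A to 1 sample left adjusted p-values between 0.0934 and 0.227. Without the pair none of the 4 passed: Notch1 was at 1.70 (adjusted p = 0.461), Jag2 at 0.75 (adjusted p = 0.794), Vcam1 at -2.09 (adjusted p = 0.556) and Vegfc at -0.17 (adjusted p = 0.967). In origin C 0 of 26 were called (limma), and 5 at an unadjusted p under 0.05, Pdgfb, Notch1, Jag1, Dll4 and Jag2, were all lower, at between -1.69 and -0.96, where 4.27% of all genes were lower at that p. In series 0 against F2 1 of 26 was called, Tymp, lower at -1.89 ± 0.48 (adjusted p = 0.0363), where 3.47% of all genes were called lower, and it lay below the limit in 15 of 16 deep libraries. Vegfa, the main ligand of Kdr and Flt1, differed between inflamed and desert tumours by -0.41 ± 0.53 (adjusted p = 0.832) and the Notch ligand of tip cells, Dll4, by 0.18 ± 0.45 (adjusted p = 0.920).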

How the data were processed

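The authors deposited log2 values for 784 rows, 1 column per sample, of which 34 hold no value. Per the labels' protocols, RNA came from a Trizol extraction and was labelled with NanoString barcodes; the normalisation is not given in the sources used here. For 100% of the values, 2 to the power of the value divided by 1 factor per column is a whole number within 0.001, so barcode counts and library totals were recovered; the recovery was tested on simulated data. The log2 values of the 75 genes with the lowest mean count gave each library's detection limit, set at 2 SD above their mean. The limit covers counting error and background, while SD and SE are between libraries.

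Classes, letters and code series were compared in the 16 deep libraries with limma 3.58.1 in R 4.3.3 (lmFit, eBayes, 2-sided, Benjamini-Hochberg over 750 genes), with no pseudocount or filter on low genes. Correlations and permutation tests used scipy 1.17.1. The genes, the lists and the depth limit of 100000 counts were chosen with earlier results of these data known. All 10 genes are named, as are the 5 vessel genes of smallest p between inflamed and desert tumours and over letters, and the 5 genes most like the 10. Vegfa, Dll4 and the vessel genes called for origin A or the code series were added after their values were seen. A difference smaller than its SE was given no direction when alternatives were compared. Fits with all 24 libraries, letter blocks (statmod 1.5.0), other scalings and filters, voom weights and libraries left out were the alternatives; those without the inflamed pair for Angpt2 relative to Angpt1, and with F2 codes for pairs of genes, were chosen after seeing the data. Desert replicates 3 and 4, both shallow, differed by less than the sampling noise (chi-square per degree of freedom 0.938). Desert replicate 6, of the same code number, differed from them by 69.2 and 66.6. Replicates 3 and 4 entered only the fit of all 24 libraries.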

Additional observations from a re-analysis of the deposited data

Results flagged for a closer look

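Of 40 groups of 4 to 10 deep libraries tested for a library far from the rest, 1 stood out, where chance gives about 1 in 20. Among the 8 inflamed libraries, Aplnr in replicate 10 was at 2.47, with the nearest library at 4.24. The value lies below that library's detection limit of 3.22, so it is a bound and not a level. Replicate 10 is of origin G, where the 0 code, a desert library, stood at 5.77 and the other F2 library at 4.24.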

How the results depend on the processing

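No class comparison called any of the 10 genes under any alternative, and Angpt2 relative to Angpt1 stayed short of the threshold in all. The number called in origin A, 2 in the main setting, was 0 with all 24 libraries, endothelial scaling, median centring, code numbers averaged or the inflamed pair left out, 1 with libraries of at least 200000 counts or voom weights, 4 with F2 codes only, and between 0 and 4 when 1 library was left out. Over all 750 genes origin A had 168 called in the main setting and 13 with all 24 libraries. It had 31 with endothelial scaling, 145 with median centring and 6 with code numbers averaged. With at least 200000 counts there were 149, with voom weights 162 and with F2 codes only 307. Leaving out 1 library gave between 14 and 298. In series 0 against F2, 0 of the 10 were called in the main setting, and 1 with all 24 libraries and with letter as a fixed or random block. When 1 library was left out, between 0 and 1 were called. All genes called there were 31, 36, 95 and 77 in the same order, and between 0 and 42 with 1 library left out. Pairs of genes that passed, 18, were 6 after median centring and 1 within F2. Directions turned for Tie1 in inflamed against desert with F2 codes only (0.052), Pecam1 in A without the inflamed pair (0.65), Tie1 in C with all 24 libraries (0.030) and endothelial scaling (0.019), and Robo4 in C with all 24 libraries (0.15), endothelial scaling (0.042) or without desert replicate 5 (0.059; -0.78 to 0.059 over all libraries left out). In series 0 against F2, endothelial scaling gave -0.13 for Kdr, -0.014 for Cdh5, -0.16 for Tie1, -0.31 for Flt1, -0.37 for Robo4, -0.22 for Aplnr and -0.095 for Mmrn2, while moving the median of all genes to -0.89. This scaling takes the mean of Pecam1, Cdh5, Tie1 and Kdr from every gene, so some of these 4 had to turn, by construction; Robo4 was at -0.062 with all 24 libraries. Median centring moved that median to -0.26, and with it Angpt2 was at -0.05. The other causes were not tested. Of 2639 single-gene values under alternatives, 2544 were counted as unchanged, 61 fell short, 19 passed and 15 turned. A difference smaller than its SE had no direction in this count, so the 2544 include changes of sign. Inflamed minus desert, for instance, ran between -0.85 and 0.80 for Flt1 and between -0.62 and 0.82 for Cdh5.

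Counts over all genes moved by more than 1.5 times. Inflamed against desert had 2, and 0 to 8 over the alternatives. Inflamed against excluded had 0, but 62 with letter as a fixed block, which draws on letters A, C and G. Origin A had 168 and 6 to 307, the letters 3 and 0 to 149, origin C 1 and 0 to 39, and series 0 against F2 31 and 0 to 169. Replicate numbers only name samples in accession order, so no analysis was paired by them. Origin letter was the sole block. The number of libraries and the shallow depth of 8 of them limit what could be detected.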
